A study of Mus musculus with 10 samples.

Results

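Of the 1629 regions listed as enriched for histone H3 lysine 9 acetylation (H3K9ac) after 24 h of differentiation in 3T3-L1 cells, 989 (60.7%) had neither a C/EBPβ nor a glucocorticoid receptor (GR) peak of 6 h within 1 kb. The set was chosen by the gaps to the deposited 6 h peaks: a region belonged to it when the gap between it and every 6 h peak was 1000 bp or more, with overlap counted as a gap of 0. The other 640 regions of the 24 h list had such a peak and are called factor-near regions here. Chromatin immunoprecipitation followed by sequencing was performed on 3T3-L1, a mouse fibroblast line that becomes adipocytes in culture. The lists used were of H3K9ac at 24 h, C/EBPβ at 6 h and GR at 6 h after differentiation was induced, and of H3K9ac and C/EBPβ in undifferentiated cells (0 h) and H3K9ac at 240 h for comparison. The agents of induction are not named in the labels, and no genetic change is given for any group. GR was precipitated with antibodies from a pair of suppliers. Every group was 1 library of unknown depth, so there is no replicate error and no test across cultures.

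H3K9ac is laid down by histone acetyltransferases and is common at active promoters and enhancers. C/EBPβ is a basic leucine zipper factor that appears early in adipocyte differentiation and precedes PPARγ and C/EBPα. GR is the nuclear receptor that glucocorticoids, a common part of adipogenic mixtures, bring onto DNA, where it recruits coactivators with acetyltransferase activity. The 24 h list leaves out transcription start sites, so its regions are not promoters of annotated starts, and each was called by the authors as enriched against 0 or 240 h. The lists carry no gene names, and genes are not assigned here.

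Since the regions were selected on the gaps to C/EBPβ and GR, the absence of a peak within 1 kb is a definition and not a result. The regions just inside the limit had gaps of 1022 bp, 1027 bp and 1028 bp, and those just outside it had gaps of 978 bp, 988 bp and 998 bp. There was no visible break at the limit. The 68 regions with gaps of 1000 bp or more and under 1500 bp had a median width of 1250 bp, and the 58 with gaps of 500 bp or more and under 1000 bp had a median of 1200 bp. Both groups had a median read count of 9, where the read count is the authors' average over a region, a whole number whose normalisation is not given. The 488 factor-near regions with a gap of 0 had a median width of 1750 bp and a median read count of 10. Factor-near regions just outside the limit were thus more like the set than those that overlapped a peak. The intervals below are 95% intervals (Wilson for a share, Newcombe for a difference of shares) and cover counting error only. Neighbouring regions share a library and often a locus, so these intervals, which treat regions as independent, are too narrow.

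The acetylated regions without early factors were the narrower ones of the 24 h list and had the weaker FDR. Their median width was 1200 bp (1150 to 1200), against 1650 bp (1550 to 1750) for factor-near regions. Their quartiles were 1000 and 1600 bp, against 1150 and 2400 bp. Together they covered 1450 kb, and the 640 factor-near regions covered 1273 kb. Of the regions without early factors, 38.9% (35.9 to 42.0%) were wider than the median of the whole list (1300 bp), against 63.6% (59.8 to 67.2%) of factor-near regions and 48.6% of the list. The difference was -24.7 points (-29.4 to -19.8). Part of it follows from the rule, because a wide region has more room for a peak. The plot of width by class also divides the factor-near regions: those near C/EBPβ alone had a median of 1550 bp, those near GR alone 1550 bp and those near both 1800 bp.

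The authors' false discovery rate (FDR) is listed in 6 steps, the lowest written as 0. An FDR of 0 was given to 114 of the 989 regions (11.5%, 9.68 to 13.7%), against 173 of 640 factor-near regions (27.0%, 23.7 to 30.6%) and 17.6% of the whole list. The difference was -15.5 points (-19.5 to -11.6). At the other end, 317 regions without early factors (32.1%) were in the weakest step, 6.18e-05, against 22.5% of factor-near regions. The share without early factors was higher at each weaker step, with 39.7% among the 287 regions of FDR 0 and 68.8% among the 461 of the weakest step. Read counts leaned the same way. A count above the list median of 9 was found in 36.8% (33.9 to 39.9%) of regions without early factors, 46.7% (42.9 to 50.6%) of factor-near regions and 40.7% of the list, a difference of -9.91 points (-14.8 to -5.01). By class, the share was 37.4% (32.1 to 43.1%) near C/EBPβ alone, 57.75% near GR alone and 53.8% near both. Regions near C/EBPβ alone thus had about the same share as regions without early factors. Counts of 13 or more were found in 17 regions without early factors (1.72%) and in 41 factor-near regions (6.41%).

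**Figure D1:**
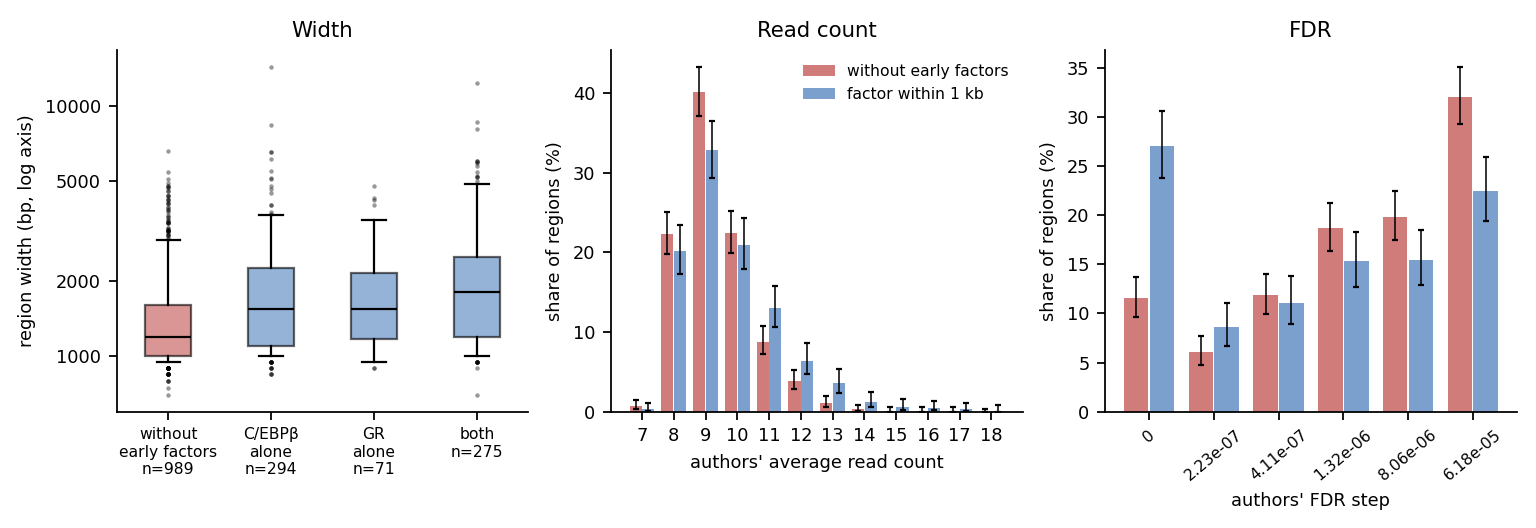
Width (bp, log axis; boxes are quartiles, whiskers the 5th and 95th percentiles, dots regions beyond them), authors' average read count and authors' FDR of the 24 h regions, with 95% Wilson intervals on the bars. The 989 regions without early factors have a median width of 1200 bp and 11.5% at an FDR of 0, against 1650 bp and 27.0% for the 640 factor-near regions.

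The differences in FDR and read count varied with width, and they remained among wider regions. In regions of at least 1000 and under 1500 bp, the lowest FDR step, 0, was given to 5.87% of the 596 without early factors and to 6.94% of the 245 factor-near ones, a difference of -1.07 points (-5.28 to 2.30) whose interval includes 0. Read counts above 9 were found in 38.3% and 39.6% of the same regions, a difference of -1.34 points (-8.65 to 5.79). In regions of 1000 to 2000 bp the difference in an FDR of 0 was -5.36 points (-9.43 to -1.70). Among regions of 1500 bp or more the differences were -16.7 points (-23.6 to -9.52) for an FDR of 0 and -13.97 points (-21.3 to -6.40) for the read count. Width is not held fixed there, since 89 of 367 factor-near regions were 3000 bp or wider, against 48 of 306. From 1500 to under 2000 bp, 13.0% without early factors and 24.6% of factor-near regions had an FDR of 0. From 2000 to under 3000 bp these shares were 31.25% and 41.4%, and those of counts above 9 were 39.3% and 54.3%. In regions of 3000 bp or more, 25 of 48 without early factors (52.1%, 38.3 to 65.5%) and 64 of 89 factor-near regions (71.9%, 61.8 to 80.2%) had an FDR of 0. The division by width was added once the lists were known.

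Among themselves, the regions without early factors ran from 700 to 6600 bp in width and from 7 to 17 in read count. A count of 9 was the commonest, with 397 regions, followed by 10 with 222 and 8 with 221. Width and FDR went together: the median width was 2000 bp in the 114 regions with an FDR of 0 and 1000 bp in the 317 regions of the weakest step, where the read count was at most 11. Only 48 regions (4.85%) were 3000 bp or wider, against 89 factor-near regions (13.9%).

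The region with the highest read count lay on chromosome 16 at 84583900 to 84589000 (mm8, coordinates as deposited), with a count of 17 and an FDR of 0. It was also the third widest, at 5100 bp, and 0.7 kb from a factor-near region. Its nearest GR and C/EBPβ peaks were 3.31 and 3.32 kb away, with peak heights, the authors' whole-number read signal at a peak, of 12 and 25. A region on chromosome 11 at 70228250 to 70229400 followed with a count of 16. It lay 1.12 kb from a C/EBPβ peak, while the nearest GR peak was 206.2 kb off and the nearest H3K9ac 0 h region 4.9 kb. The third, on chromosome 1 at 40060200 to 40061500, had a count of 15. It lay 5.41 kb from a GR peak and 0.15 kb from another region of the set. A count of 14 was given to a region at 23553000 to 23555000 of chromosome 13 and to another at 50005150 to 50006500 of chromosome 14. Their nearest GR peaks were 2479 and 2793 kb away. A narrower region at 50403450 to 50404700 of chromosome 14 tied with them at a count of 14 and an FDR of 0. Of these 6 regions, 5 had a C/EBPβ 6 h peak within 10 kb and 2 a GR peak as well, against 48.6% and 20.5% of all 989. So few regions, picked by their read count, do not set a share. Over the whole set, a count above 9 was found in 37.2% of regions with a factor peak at 1 to 10 kb. It was found in 36.4% of those with no factor peak within 10 kb. The nearest C/EBPβ peak of the tied region was 225.1 kb away. The widest region, on chromosome 1 at 39942900 to 39949500, spanned 6600 bp with a read count of 11, and the second widest, on chromosome 1 at 95017800 to 95023250, spanned 5450 bp with a count of 10. Neither had a factor peak within 10 kb: their nearest C/EBPβ peaks were 34.7 and 21.2 kb away.

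Early factors were still close to many of these regions. The rule sets the smallest possible gap at 1 kb, which bears on the medians and quartiles below. The nearest C/EBPβ 6 h peak lay at a median gap of 10.5 kb (9.32 to 12.4), with quartiles of 3.51 and 37.4 kb. The nearest GR peak lay at a median of 47.5 kb (39.3 to 57.0), with quartiles of 10.8 and 215.1 kb. C/EBPβ was the nearer factor for 829 regions (83.8%) and GR for 160 (16.2%), from lists of 20746 and 4007 peaks. C/EBPβ held about the same share of the listed peaks, so the split is not read as a preference. Between 1 and 10 kb, 203 regions (20.5%) had both factors, 278 (28.1%) C/EBPβ alone, 27 (2.73%) GR alone and 481 (48.6%) neither. No factor peak lay within 50 kb of 171 regions (17.3%).

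The same rule applied to the other H3K9ac lists left 3326 of 4429 regions at 0 h and 6827 of 7845 at 240 h, which gave a comparison among regions that all lacked a peak within 1 kb. A GR peak at 1 to 10 kb was found for 230 of the 989 regions of 24 h (23.3%, 20.7 to 26.0%) against 321 of the 3326 regions of 0 h (9.65%, 8.69 to 10.7%), a difference of 13.6 points (10.9 to 16.5). At 240 h it was found for 400 of 6827 regions (5.86%, 5.33 to 6.44%), and the 24 h share exceeded this by 17.4 points (14.8 to 20.2). The median gap to GR was 47.5 kb at 24 h, against 113.8 kb at 0 h and 161.1 kb at 240 h.

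C/EBPβ at 6 h showed the same direction. A peak at 1 to 10 kb was found for 481 regions of 24 h (48.6%, 45.5 to 51.8%) against 1188 of 0 h (35.7%, 34.1 to 37.4%), a difference of 12.9 points (9.40 to 16.4). The share at 240 h was 25.9% (24.8 to 26.9%), and the 24 h regions exceeded it by 22.8 points (19.5 to 26.1). The excess over 0 h did not hold over a longer span. From 1 to 50 kb the shares were 80.3% at 24 h and 77.9% at 0 h, a difference of 2.35 points (-0.586 to 5.12) whose interval includes 0. The difference from 240 h over that span was 9.81 points (7.01 to 12.4). For GR the difference from 0 h over the same span was 19.6 points (16.1 to 23.1). The curves of cumulative distance show this, with the 24 h line above the others for GR over most of the axis and merging with the 0 h line for C/EBPβ near 100 kb.

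**Figure D2:**
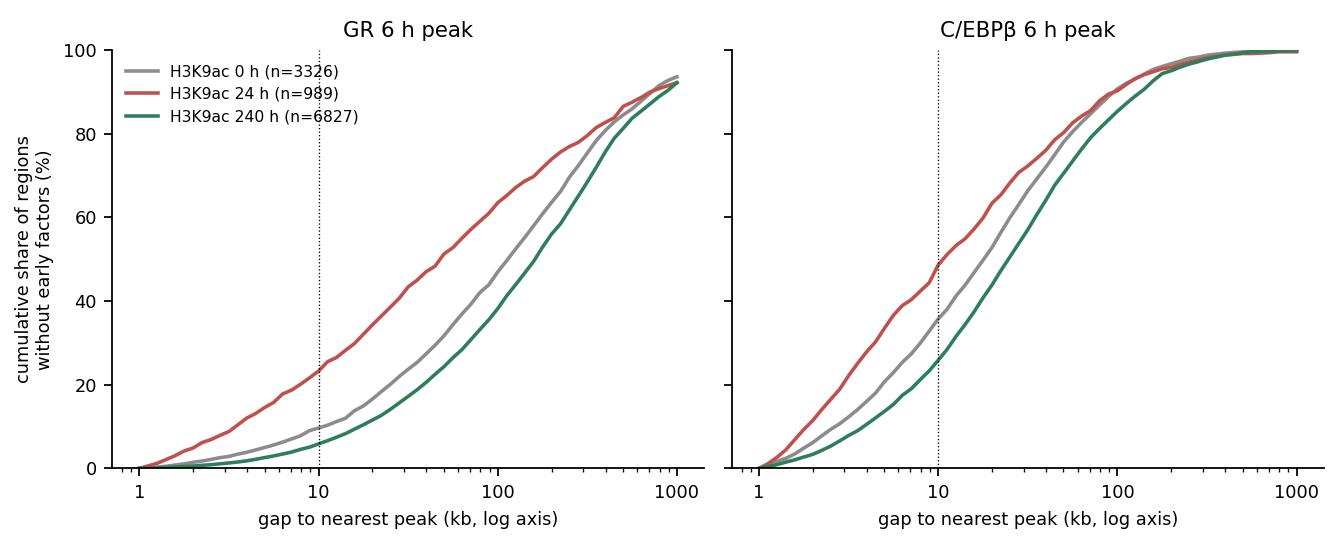
Cumulative share (%) of the H3K9ac regions without early factors against the gap to the nearest GR 6 h peak (left) and C/EBPβ 6 h peak (right), in kb on a log axis, for the 0 h, 24 h and 240 h lists; the dotted line marks 10 kb. At 10 kb the lines stand at 9.65%, 23.3% and 5.86% for GR and at 35.7%, 48.6% and 25.9% for C/EBPβ in order of time.

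Counting every peak in the flanks, and not the nearest alone, gave the same order. From 1 to 5 kb on either side, the 24 h regions without early factors had 19.6 GR peaks per Mb of flank (16.6 to 22.9, exact Poisson interval of counting error), against 6.80 (5.85 to 7.87) around the 0 h regions. The 240 h regions had 3.39 (2.92 to 3.91). From 50 to 100 kb the 24 h regions had 5.79 GR peaks per Mb against 4.15 at 0 h, and 3.26 at 240 h. The lists thus lay closer together in the outer range than beside the regions. C/EBPβ 6 h peaks numbered 54.9 per Mb at 1 to 5 kb (49.8 to 60.3) around the 24 h regions, against 32.3 (30.2 to 34.6) around the 0 h regions. Around the 240 h regions the C/EBPβ density was 19.99 per Mb. A peak between neighbouring regions is counted for each of them. The factor-near 24 h regions had densities of the same order or higher, with 22.9 GR peaks (18.9 to 27.4) and 59.6 C/EBPβ 6 h peaks per Mb (53.1 to 66.65) at 1 to 5 kb, so high density was not particular to the regions without early factors within the 24 h list.

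**Figure D3:**
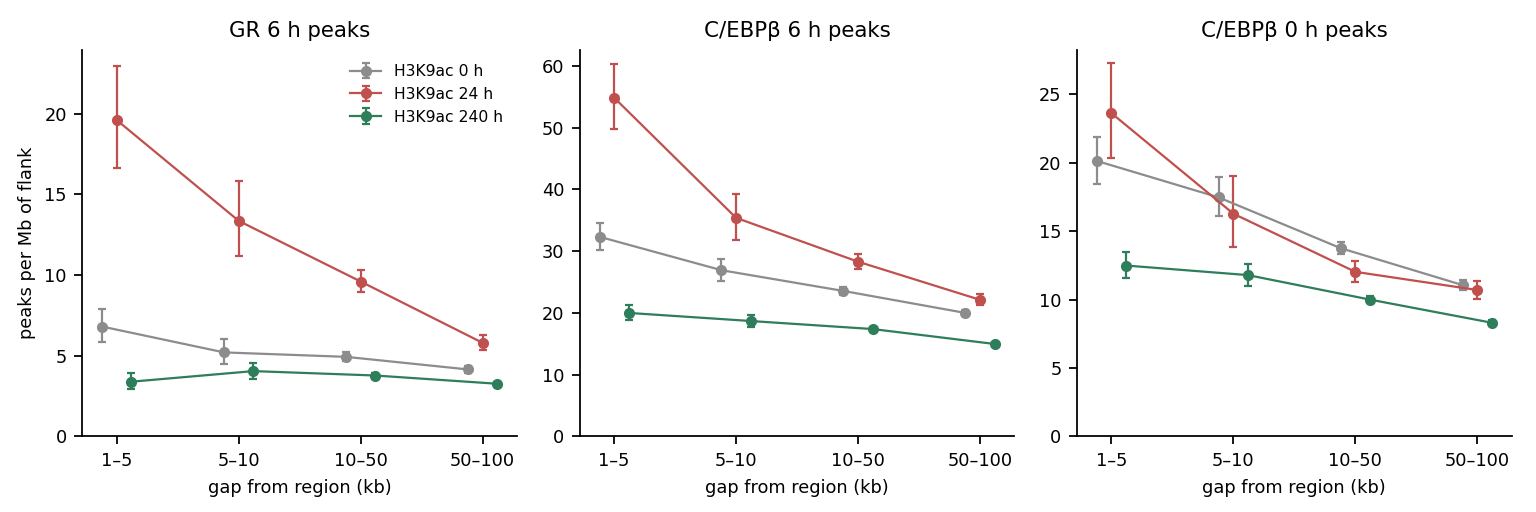
Peaks per Mb of flank (points, with exact 95% Poisson intervals) at 4 ranges of gap (kb) from H3K9ac regions without early factors of the 0, 24 and 240 h lists, for GR 6 h, C/EBPβ 6 h and C/EBPβ 0 h peaks. At 1 to 5 kb the 24 h regions have 19.6 GR and 54.9 C/EBPβ 6 h peaks per Mb, above both other lists, while for C/EBPβ 0 h peaks their interval overlaps that of the 0 h regions.

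GR peaks in these flanks were taller than those beside 0 h and 240 h regions, and as tall by median as those of the factor-near 24 h regions. Where the nearest GR peak lay at 1 to 10 kb from a 24 h region, its median height was 22, with quartiles of 14.25 and 35, against a median of 15 and quartiles of 13 and 20 beside the 0 h regions. Beside the 240 h regions the median was 17, and over all 4007 GR peaks it was 16. The nearest GR peaks under 1 kb from factor-near 24 h regions also had a median of 22, with quartiles of 15 and 37. The peak was higher than 16 for 64.8% of the 230 regions of 24 h against 41.1% of the 321 regions of 0 h, a difference of 23.7 points (15.3 to 31.5). Several regions can share a nearest peak. With each peak counted once the shares were 62.6% of 206 peaks against 43.4% of 249, a difference of 19.2 points (10.05 to 27.97). The difference from the 240 h regions (53.0%) was 11.8 points (3.78 to 19.4), and it was 6.94 points (-3.86 to 17.4) with peaks at 1 to 5 kb alone. The nearest C/EBPβ 6 h peaks at 1 to 10 kb had median heights of 19 at 24 h against 18 at 0 h and 18 at 240 h. Heights were compared once the lists were known.

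C/EBPβ sites of undifferentiated cells were rare at the 24 h regions without early factors. Of the 989 regions, 6 had a C/EBPβ 0 h peak at a gap under 1 kb (0.607%, 0.278 to 1.32%) against 172 of 3326 at 0 h (5.17%, 4.47 to 5.98%), a difference of -4.57 points (-5.43 to -3.57). At 240 h it lay within 1 kb of 155 of 6827 regions (2.27%), a difference of -1.66 points (-2.17 to -0.881). With the sets chosen by overlap this turned to 0.319 points (-0.741 to 1.65). With taller factor peaks alone the difference from 0 h was -2.55 points (-3.17 to -1.82). The rule bears on these shares, since 73.5% of C/EBPβ 0 h peaks have a 6 h factor peak within 1 kb, and regions near such a pair were mostly left out of all 3 sets. Among factor-near regions of 24 h the share was 28.6% (25.2 to 32.2%). Farther out neither difference held. Within 10 kb a C/EBPβ 0 h peak was found for 28.8% of the 24 h regions against 30.2% of those of 0 h, a difference of -1.37 points (-4.53 to 1.91), and against 20.9% of those of 240 h, a difference of 7.96 points (5.05 to 11.0). Only 2 of the 6 regions overlapped the 0 h peak itself. One was at 123999050 to 124000550 of chromosome 8. The other was at 79312200 to 79313500 of chromosome 2. Both were named after their values had been seen.

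Most acetylated regions of 24 h had no other 24 h region within 10 kb. Another one lay at that distance for 25.7% (23.1 to 28.5%) of regions without early factors and 38.6% (34.9 to 42.4%) of factor-near regions. A factor-near 24 h region lay within 10 kb of 119 regions without early factors (12.03%, 10.2 to 14.2%), while 172 factor-near regions (26.9%, 23.6 to 30.4%) had another factor-near region within that distance. The difference was -14.8 points (-18.9 to -10.9). One peak between adjacent regions makes both of them factor-near, and with the classes set by overlap the difference was -5.56 points (-9.67 to -1.76). The median gap to the nearest factor-near region was 638.1 kb (484.6 to 787.4) for regions without early factors and 92.9 kb (52.3 to 141.6) for factor-near ones. The nearest other region without early factors lay at a median of 182.2 kb (148.4 to 224.2), and 171 regions (17.3%) had one within 10 kb. From factor-near regions it lay at a median of 159.9 kb (103.3 to 213.9), and 125 of them (19.5%) had one within 10 kb. The classes thus differed mainly in their factor-near neighbours.

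When 24 h regions at gaps under 10 kb were joined, 1334 groups resulted, of which 1128 were single regions. Of these 1128 single regions, 735 were without early factors, where 989 of all 1629 regions (60.7%) were. Among the 206 groups of 2 or more, 94 were mixed, 60 held regions without early factors alone and 52 held factor-near regions alone. The mixed groups held 125 regions without early factors, and the groups with no factor-near region held 129. No expected number is given for any kind of group, so these counts are a description alone. Some regions lay almost side by side: 70 without early factors (7.08%) had a gap under 1 kb to another 24 h region.

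The share with a factor-near neighbour was then set against the other lists. Within 10 kb, 12.03% of those listed at 24 h and 11.1% of those listed at 0 h had a factor-near region of their own list, a difference of 0.908 points (-1.28 to 3.31) whose interval includes 0. With each list limited to its 1629 strongest regions it was 4.24 points (1.71 to 6.83), and within 50 kb it was -4.26 points (-7.24 to -1.13), so its direction depends on the setting. The difference from the 240 h regions (9.05%) was 2.98 points (0.971 to 5.25). It was 5.79 points (3.42 to 8.27) with lists of equal length and 0.0467 points (-2.70 to 2.97) within 50 kb.

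**Figure D4:**
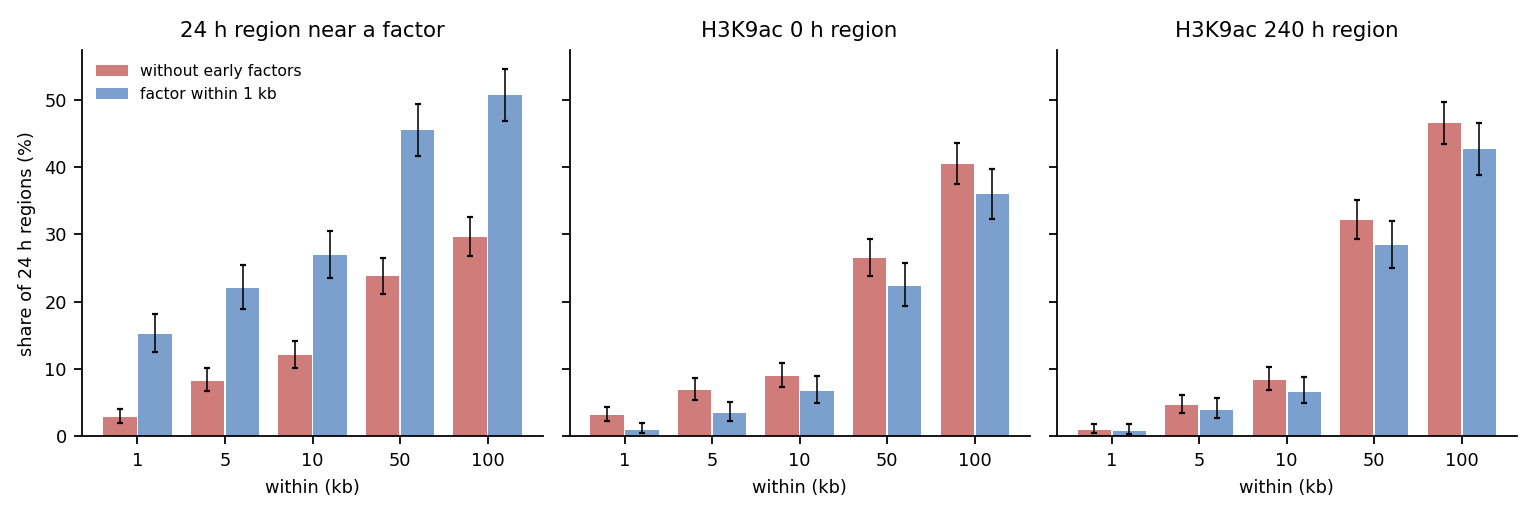
Share (%) of the 989 regions of 24 h without early factors and of the 640 factor-near regions that have a factor-near 24 h region, an H3K9ac 0 h region or an H3K9ac 240 h region within 1 to 100 kb, with 95% Wilson intervals; a region is not its own neighbour. Factor-near neighbours are found within 10 kb for 12.03% against 26.9%, while the bars for 240 h regions overlap at every distance.

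The regions were also divided by the presence of a factor-near neighbour. Such a neighbour has a factor peak within 1 kb of itself, so it brings a peak at about 1 to 10 kb with it, and the higher share of GR beside it is largely built in. Of the 119 regions with such a neighbour within 10 kb, 78 (65.5%, 56.6 to 73.5%) had a GR peak at 1 to 10 kb and 24 (20.2%, 13.9 to 28.3%) an FDR of 0. Of the other 870 regions, 152 (17.5%, 15.1 to 20.1%) had a GR peak at that distance and 90 (10.3%, 8.49 to 12.5%) an FDR of 0. With a factor-near neighbour, the 24 h share exceeded that of the corresponding 0 h regions (27.0%) by 38.5 points (28.4 to 47.5). The neighbour's own peak enters this difference, so it partly restates how many factor-near regions of each list are near GR. Without a factor-near neighbour, the 24 h share exceeded that of the 0 h regions (7.48%) by 9.995 points (7.41 to 12.8). It exceeded that of the 240 h regions (4.45%) by 13.0 points (10.6 to 15.7). The split was added once the lists were known.

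The 24 h regions were then set against those listed at the other times. These lists hold regions called as enriched at 1 time against another and not all acetylated regions. Their distances are thus partly set by how they were made. No 24 h region overlapped a 0 h or a 240 h region, and the smallest gap to a 240 h region was 100 bp. An H3K9ac 0 h region lay within 10 kb of 88 regions without early factors (8.90%, 7.28 to 10.8%) and of 43 factor-near regions (6.72%, 5.03 to 8.93%), a difference of 2.18 points (-0.560 to 4.75) whose interval includes 0. Closer in, 31 regions without early factors (3.13%, 2.22 to 4.42%) against 6 factor-near regions (0.938%, 0.430 to 2.03%) lay within 1 kb of a 0 h region, a difference of 2.20 points (0.770 to 3.57). The distance of 1 kb was added once the lists were known. Of those 31 regions, 4 touched the 0 h region at a shared boundary. An H3K9ac 240 h region lay within 10 kb of 83 regions without early factors (8.39%) and of 42 factor-near regions (6.56%), a difference of 1.83 points (-0.865 to 4.36).

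The window of 100 kb with most regions without early factors lay on chromosome 5. Windows on chromosomes 16, 2 and 4 tied with 6 such regions each, and the first 2 of these were drawn because they also held factor-near regions. The window on chromosome 5 from 118600000 to 118700000 held 7 such regions and no factor-near region. It also held 6 C/EBPβ 6 h peaks, 3 C/EBPβ 0 h peaks and 1 GR peak, whose height was 86. By the rule, all 6 h peaks lay at gaps of 1 kb or more from these regions. Its 2 regions with the highest read count, at 118650950 to 118653450 and 118653800 to 118654850, had counts of 12 and lay 0.35 kb apart. The window on chromosome 16 from 24300000 to 24400000 held 6 regions without early factors and 2 factor-near regions. A GR and a C/EBPβ 6 h peak met in or beside each factor-near region there. The window on chromosome 2 from 30600000 to 30700000 held 6 and 1. Its factor peaks lay at the end of the window with its factor-near region, away from most regions without early factors.

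**Figure D5:**
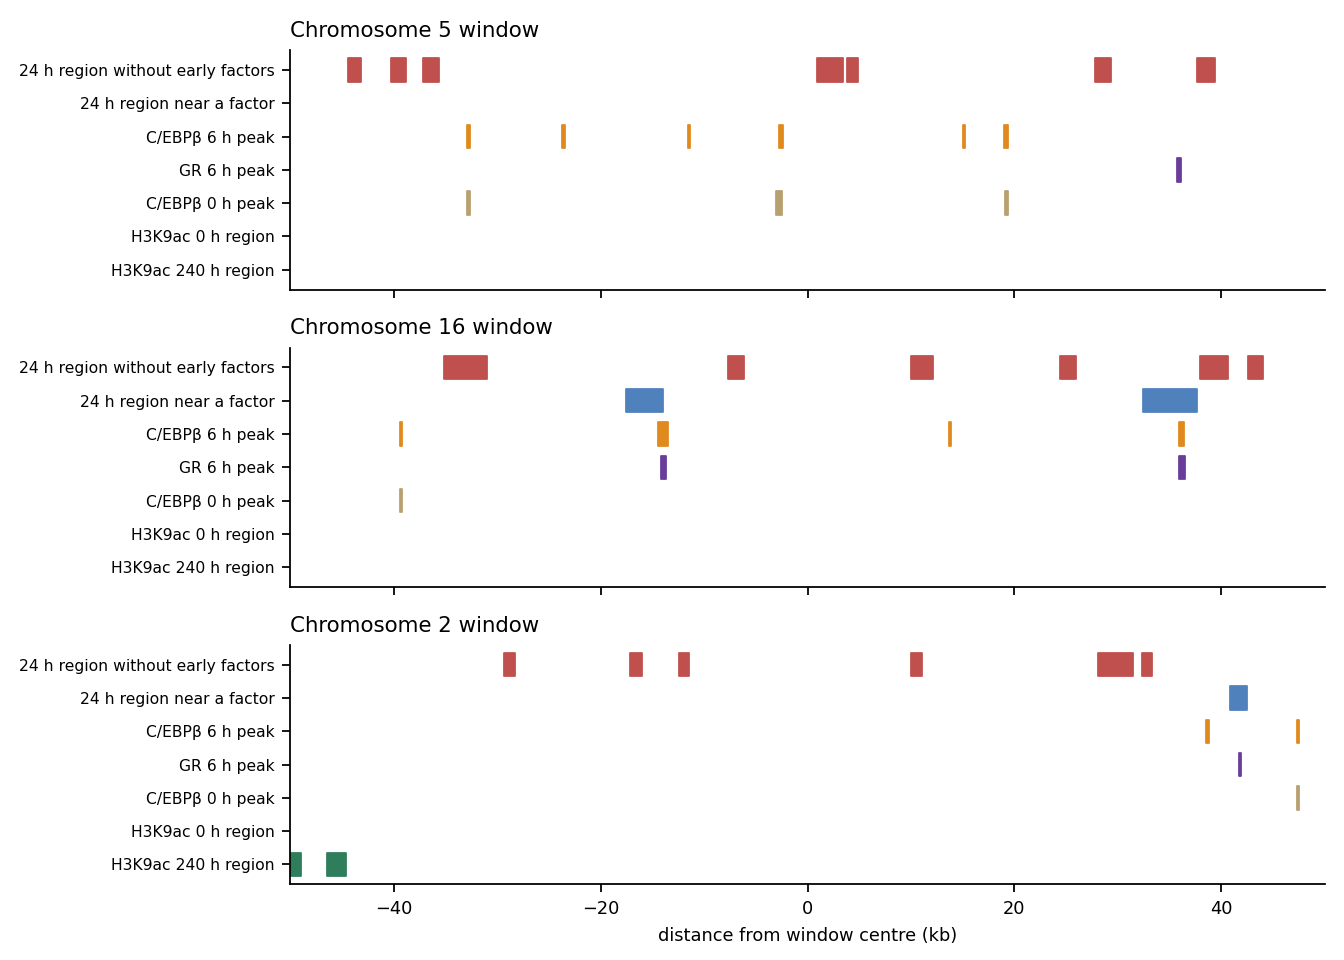
Features of 3 windows of 100 kb rich in 24 h regions without early factors, by distance from the window centre (kb), without the chromosome 4 window that ties with those on chromosomes 16 and 2; bars are regions and peaks drawn to scale with a thin outline. The windows on chromosomes 5, 16 and 2 hold 7, 6 and 6 regions without early factors, with 0, 2 and 1 factor-near regions.

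The chromosome 4 window, from 153000000 to 153100000, held 6 regions without early factors, no factor-near region, 1 C/EBPβ 6 h peak and no GR peak. There 5 regions without early factors followed each other from 153050800 to 153072200, over 21.4 kb, with no factor-near region and no C/EBPβ or GR peak among them. Their widths were 1250, 4200, 3600, 4900 and 1500 bp along the chromosome, with read counts of 11, 10, 9, 9 and 9. The nearest C/EBPβ 6 h peak was 17.0 kb beyond the last of them and had a height of 13. A sixth region, at 153085850 to 153088200, lay 1.03 kb from that peak and was among the 3 regions nearest to a factor peak. Another of those, at 164157750 to 164158800 of chromosome 1, was 1.02 kb from a GR peak of height 40. The last, at 28231400 to 28234250 of chromosome 17, was 1.03 kb from a C/EBPβ peak of height 25. The group on chromosome 4 had the most members of any group without a factor-near region.

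At the far end, 147 regions (14.9%) had neither a factor peak nor another 24 h region within 50 kb. Their median width was 1100 bp, and 10 (6.80%, 3.74 to 12.1%) had an FDR of 0, against 11.5% of all 989. That interval includes 11.5%, and the 147 regions are part of the 989. Their median read count was 9, as in the whole set. The 3 regions farthest from any factor peak had gaps of 4563, 2122 and 1223 kb. The first lay on chromosome X at 84364850 to 84369400, the second on the same chromosome at 120406500 to 120407550. The third was at 29237950 to 29239300 of chromosome 12. The first of these was 4550 bp wide with an FDR of 0 and a read count of 11. It lay 59.7 kb from a C/EBPβ 0 h peak.

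Regions without early factors were listed on every autosome and on chromosome X. Their share of a chromosome's 24 h regions ran from 49.4% (39.0 to 59.8%) on chromosome 6 to 74.8% (65.6 to 82.1%) on chromosome 11. Chromosome 2 held the most regions of the set, with 84 of 989. Only 13 were on chromosome X, and the interval of its share, 54.2% (35.1 to 72.1%), includes that of the whole list.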

How the data were processed

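Per the labels' protocols, ELAND placed reads of 36 bp on mouse build mm8 with at most 2 mismatches. Reads with a unique position were kept, 1 for each start, which leaves out repeats and caps strong peaks. Which peak caller was used, and how the 4 input libraries entered, is not given in the sources used here. The deposited H3K9ac lists give an FDR, used as a q-value, and an average read count, treated as a signal. The deposited factor lists give peak height, also a signal whose lowest value is 12, and fold enrichment, a ratio that was not used. The lists give no read totals, so depth is unknown, and absence from a list does not show absence of signal. All values are the authors' and were compared and ranked within a list.

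Gaps between intervals were computed with Python 3.11.15, numpy 2.4.6, pandas 2.3.3, scipy 1.17.1 and matplotlib 3.10.9, and the code was tested on simulated intervals. Each group is 1 library, so no test across libraries was possible. Shares carry 95% Wilson, differences Newcombe and medians order-statistic intervals. Named regions are the 5 with the highest read count (ties by FDR, then width, then list order), the 3 widest, the 3 nearest to and 3 farthest from a factor peak, and the 3 windows of 100 kb with most regions (ties by more factor-near regions, then list order). Regions that tied with these were named as well. The set and the comparisons were chosen with earlier results of these data known. The height of GR peaks, the divisions by width and by factor-near neighbour, the joined groups and the distance of 1 kb to H3K9ac regions were added once the lists were known. Sequences are not shown because the mm8 genome was not used here.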

Additional observations from a re-analysis of the deposited data

How the results depend on the processing

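No paired analysis was possible because each group is 1 library. Depth is unknown, which limits every statement on a missing peak. The number of regions without early factors, 989, was 1141 when a peak had to overlap the region, 1155 with factor peaks taller than their list's median, 983 with C/EBPβ 0 h peaks also counted and 976 on autosomes. It fell by construction to 634 with gaps under 5 kb and 481 with gaps under 10 kb excluded. Of the alternatives planned for the 14 differences, 85 kept direction and call, the call being whether the interval leaves out 0. A further 5 kept direction with an interval that came to include 0, 3 came to leave it out and 5 reversed direction. The cause of these changes was not tested. In regions of 1000 to 2000 bp, the difference from factor-near regions was -2.62 points for read counts above the median and -0.616 for H3K9ac 0 h regions within 10 kb. For a factor-near neighbour it was then -0.655 from the 0 h and 1.76 from the 240 h regions. Within 50 kb in place of 10 kb, the difference from 0 h regions was 2.35 points for C/EBPβ 6 h peaks and -4.26 for a factor-near neighbour, and that from 240 h regions 0.0467 for a factor-near neighbour. The difference from 0 h in factor-near neighbours was 2.88 with the taller peaks and 4.24 with lists of equal length. For C/EBPβ 0 h peaks within 10 kb in place of 1 kb it was -1.37 from 0 h and 7.96 from 240 h regions. With the set chosen by overlap, the difference from 240 h was 0.319. The difference from factor-near regions in factor-near neighbours was then smaller, at -5.56, but kept direction and call. H3K9ac 0 h regions gave 3.44 within 5 kb. Of the alternatives added later, 10 kept direction and call, 3 came to include 0, 1 came to leave it out and 0 reversed. In regions of at least 1000 and under 1500 bp, those for an FDR of 0 and for read count were -1.07 and -1.34. H3K9ac 0 h regions gave 2.20 within 1 kb. The difference from 240 h in the height of GR peaks was 6.94 with gaps under 5 kb.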
